A study of Mus musculus with 12 samples.

Results

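The Fanconi anemia pathway repairs DNA interstrand cross-links, and 10 of its genes were followed here through a mouse model of medulloblastoma. The genes are those of the *Fanc* series with a letter name of their own, namely *Fanca*, *Fancb*, *Fancc*, *Fancd2*, *Fance*, *Fancf*, *Fancg*, *Fanci*, *Fancl* and *Fancm*. They were chosen by name, with earlier results of these data known, and they make up 10 of the 24091 genes in the expression table. RNA sequencing covered 12 samples in 4 groups of 3. Medulloblastomas and the adjacent cerebellum, labelled normal, came from the same mice, GB344, GB359 and GB370, whose genotype is Brca2-mut;Trp53-mut. Controls were cerebella of Brca2-mut;Trp53-WT mice GB361, GB508 and GB512 and of Brca2-WT;Trp53-mut mice GB517, GB519 and GB520, all collected at postnatal day 90. In this model Brca2-mut is a floxed *Brca2* that loses exons 3 and 4 (Brca2Δex3-4) where Cre is made from the human *GFAP* promoter, in the developing central nervous system and not in the whole animal. Trp53-mut is a germline *Trp53* knockout present in every cell. Tumor-bearing mice were taken when a tumor formed or a humane endpoint was reached, and the study describes the controls as age-matched. No control group carries both mutations without a tumor, and no wild-type cerebellum was analysed here, so the tumors differ from each control group in genotype as well as in tissue.

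At a stalled replication fork, FANCM anchors the core complex to DNA, and the core complex is a ubiquitin ligase whose catalytic subunit is FANCL. FANCB works beside FANCL, FANCA pairs with FANCG, and FANCC, FANCE and FANCF form another module that contacts the substrate. The substrate is the pair FANCD2 and FANCI, and once FANCD2 is monoubiquitinated, nucleases unhook the cross-link and recombination proteins, BRCA2 among them, restore the fork. Biallelic loss of the pathway in people causes bone marrow failure and cancer predisposition, and the *BRCA2* form is linked to medulloblastoma, a tumor that can arise from the granule cell progenitors of the cerebellum.

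Expression was given in TPM (transcript abundance corrected for length and for the size of the library), so levels of different genes can be set side by side. The table holds no read counts, and the depth behind each value is unknown. The number of genes at 1 TPM or more ran from 15088 to 15803 per sample. The tissue labels were checked against marker genes. Summed TPM of 4 granule cell progenitor markers, *Atoh1* among them, was 1105 to 1540 in tumors and 31.2 to 37.5 in controls, and summed TPM of 4 Purkinje cell markers was 47.7 to 251 in tumors and 4023 to 6816 in controls. The adjacent cerebella held 58.0 to 339 TPM of the progenitor markers, above every control. Choroid plexus markers summed to 13.7 to 863 TPM in Brca2-mut;Trp53-WT controls and to 3935 to 5143 TPM in Brca2-WT;Trp53-mut controls. *Trp53* was at 33.1 to 37.2 TPM in the libraries labelled Trp53-WT and at 47.1 to 49.4 TPM in the control libraries labelled Trp53-mut, and *Brca2* was at 3.24 to 4.40 TPM over the 6 controls. Gene-level values also include RNA without the deleted exons and therefore check no genotype label. In bulk tissue, more cells that express a gene and more of its RNA per cell cannot be told apart.

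The first comparison asked how the pathway's expression differs between BRCA2-deficient tumors and control cerebellum. Of the 10 genes, 6 were higher in tumors (*Fancd2*, *Fanca*, *Fanci*, *Fancf*, *Fancl* and *Fancb*), none was lower, and 4 were not called (*Fance*, *Fancg*, *Fancm* and *Fancc*). A gene was called at a limma adjusted p under 0.01 with a difference of at least 1 in log2(TPM + 1), and 14.4% of the 16241 genes tested were called higher in this comparison and 21.5% lower. The median difference was 1.35 over the 10 genes and −0.11 over all genes tested. Scaling by median of ratios moved the median over all genes to −0.01 and quantile normalization moved it to 0.04, and the same 6 genes of the pathway were called in both. In 7 of the 10 genes every tumor was above every control, as it was for 28.3% of all genes tested.

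Both genes of the FANCD2-FANCI pair rose, *Fancd2* far more than *Fanci*. *Fancd2*, whose product is the monoubiquitinated subunit, was at 12.7 TPM in tumor GB344, 19.5 TPM in GB359 and 19.3 TPM in GB370. In the Brca2-mut;Trp53-WT controls it was at 0.345, 0.182 and 0.970 TPM (GB361, GB508 and GB512), and in the Brca2-WT;Trp53-mut controls at 0.342, 0.374 and 0.322 TPM (GB517, GB519 and GB520). The tumors lay far above all 6 controls, and among the controls GB512 stood above the other 5. The difference on the log2(TPM + 1) scale was 3.67 (SE 0.19, limma adjusted p = 7.39e-08), and the ratio of mean TPM was 40.7. The ratio exceeds what the log2 difference gives because every control was below 1 TPM, where the added 1 outweighs the value itself.

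*Fanci*, the partner of *Fancd2*, was at 13.2, 13.6 and 14.4 TPM in tumors. It was at 1.96, 2.42 and 3.08 TPM in the Brca2-mut;Trp53-WT controls and at 3.22, 3.47 and 3.78 TPM in the Brca2-WT;Trp53-mut controls. All tumors were above all controls, and the tumors lay close together. *Fanci* rose by 1.90 (SE 0.16, limma adjusted p = 2.03e-06), with a ratio of mean TPM of 4.59. *Fanci* was thus the more abundant of the pair in every control, and *Fancd2* was the more abundant in tumors GB359 and GB370. The overlapping gene *Polg* on the opposite strand shares 16% of the exonic bases of *Fanci*, and it differed by 0.23 (SE 0.13, limma adjusted p = 0.126).

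Among the core complex genes the largest rise was in *Fanca*, a structural subunit and the gene most often mutated in people with the disease. Its tumors held 21.0, 28.0 and 24.1 TPM. The Brca2-mut;Trp53-WT controls held 1.23, 1.05 and 2.49 TPM, and the Brca2-WT;Trp53-mut controls held 1.59, 1.40 and 1.22 TPM. The groups did not overlap, and the highest control was again GB512. *Fanca* rose by 3.36 (SE 0.18, limma adjusted p = 7.70e-08), with a ratio of mean TPM of 16.3. Its neighbor *Zfp276*, on the opposite strand, shares 10.5% of the exonic bases of *Fanca* and differed by −0.01 (SE 0.15, limma adjusted p = 0.955).

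*Fancb* and *Fancl*, which encode the catalytic module, rose by like amounts. *Fancl*, the RING-finger ligase, was at 14.8, 17.9 and 18.3 TPM in tumors, at 6.35, 4.83 and 6.41 TPM in the Brca2-mut;Trp53-WT controls and at 5.14, 7.70 and 5.81 TPM in the Brca2-WT;Trp53-mut controls. Its difference was 1.36 (SE 0.15, limma adjusted p = 1.15e-05), a ratio of mean TPM of 2.81. *Fancb*, an X-linked scaffold gene, was at 6.52, 5.23 and 4.65 TPM in tumors against 1.30 to 1.84 TPM over the 6 controls. It rose by 1.34 (SE 0.14, limma adjusted p = 7.43e-06), a ratio of 3.56. For both genes the lowest tumor was above the highest control.

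In the module of FANCC, FANCE and FANCF the genes did not move alike. *Fancf*, an adaptor made from an intronless gene of 1691 bp, was at 24.3, 26.2 and 16.7 TPM in tumors. It was at 6.48, 6.02 and 6.17 TPM in the Brca2-mut;Trp53-WT controls and at 6.40, 7.36 and 8.47 TPM in the Brca2-WT;Trp53-mut controls. Tumors and controls did not overlap, and *Fancf* rose by 1.56 (SE 0.16, limma adjusted p = 7.57e-06), a ratio of mean TPM of 3.28. *Fance*, which binds FANCD2, was at 25.5, 30.7 and 25.1 TPM in tumors and at 13.8 to 22.1 TPM in controls. Although its groups did not overlap either, the difference of 0.50 (SE 0.16, limma adjusted p = 0.0149) was not called. *Fancc*, the remaining subunit of the module, was at 11.96, 13.5 and 8.19 TPM in tumors and at 7.93 to 17.5 TPM in controls. Its ranges overlapped, with a difference of −0.29 (SE 0.26, 95% interval −0.86 to 0.29, limma adjusted p = 0.342).

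*Fancg* and *Fancm* were also not called. *Fancg*, the partner of *Fanca* in the complex, was at 13.1, 18.7 and 18.5 TPM in tumors and at 11.7 to 16.4 TPM in controls, with a difference of 0.21 (SE 0.15, 95% interval −0.12 to 0.54, limma adjusted p = 0.221). *Fancm*, the translocase that recruits the complex, was at 12.4, 13.7 and 10.01 TPM in tumors and at 9.93 to 12.2 TPM in controls, with a difference of 0.16 (SE 0.12, 95% interval −0.11 to 0.42, limma adjusted p = 0.261). The intervals of *Fancg*, *Fancm* and *Fancc* lie inside the fold minimum of 1 in either direction.

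**Figure D1:**
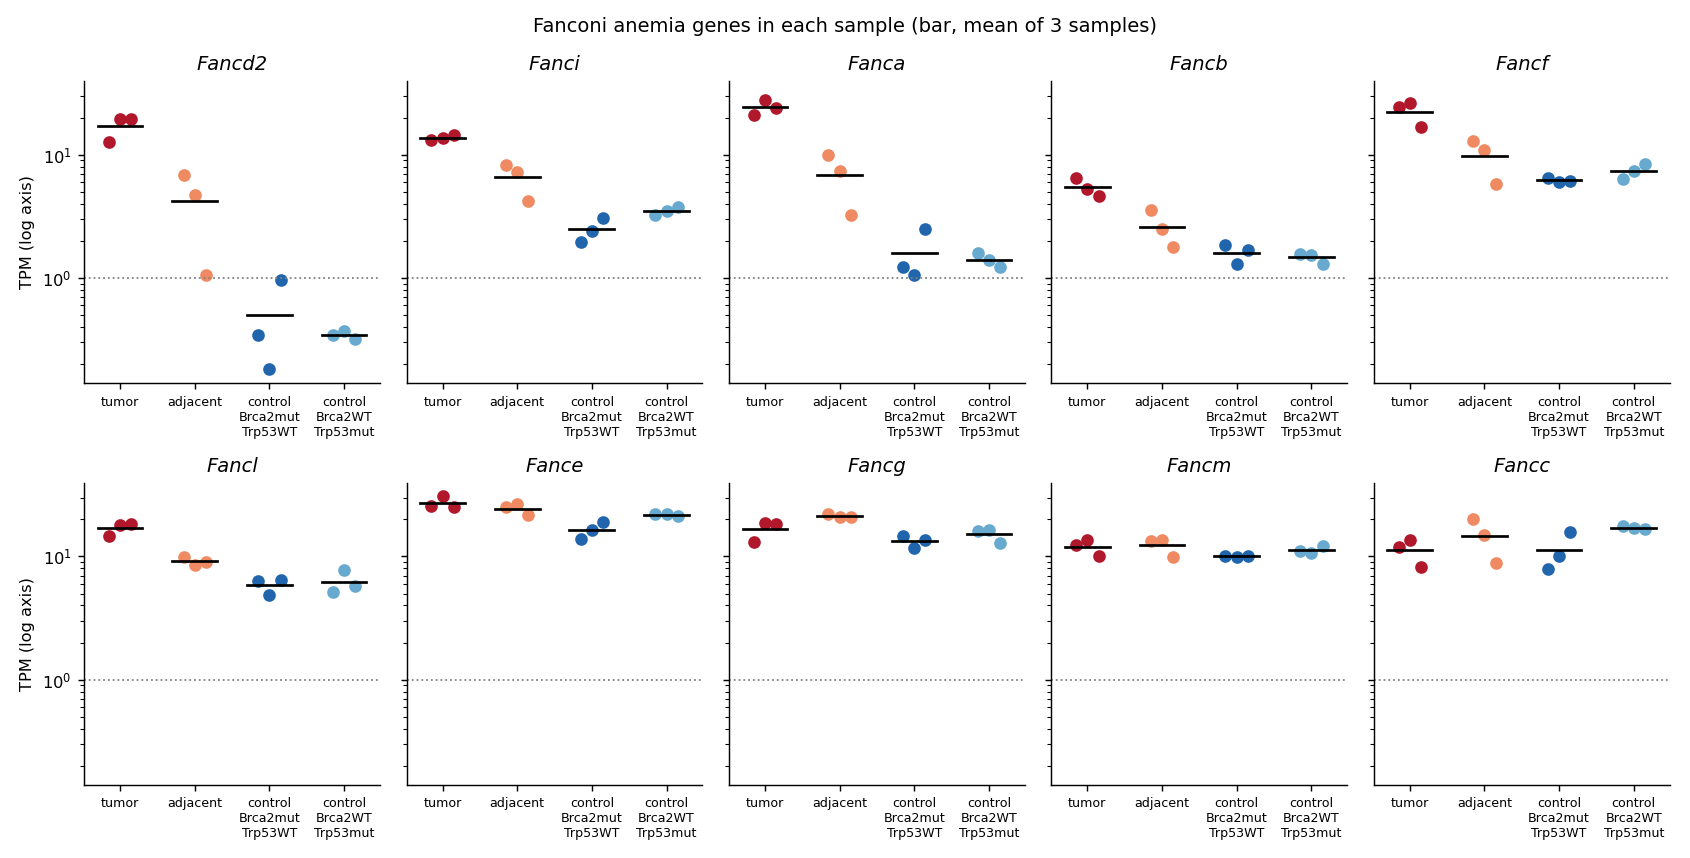
TPM of the 10 genes in each sample on a log axis, by group; points are samples, ordered by mouse number within a group, bars are means of 3 samples and the dotted line marks 1 TPM. *Fancd2* runs from 0.182 TPM in a control to 19.5 TPM in a tumor, whereas *Fancm* stays between 9.93 and 13.7 TPM in every sample.

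As the genes moved by different amounts, their order changed. In controls *Fancd2* had the lowest mean of the 10 (0.423 ± 0.277 TPM, SD, n = 6) and *Fanca* the next lowest (1.495 ± 0.519 TPM, SD, n = 6), level with *Fancb* at 1.54 ± 0.212 TPM (SD, n = 6). In tumors *Fanca* had the second highest mean (24.4 ± 3.47 TPM, SD, n = 3) and *Fancd2* the fourth (17.2 ± 3.90 TPM, SD, n = 3). *Fance* had the highest mean in each group, and *Fancb* the lowest in tumors and in adjacent cerebella. The tumor means of *Fancd2*, *Fancl* and *Fancg* lay within their SDs of each other. Of the summed TPM of the 8 core genes, *Fanca* made up 2.02% in controls, 6.54% in adjacent cerebella and 17.9% in tumors. The share of *Fancc* went from 18.8% in controls to 14.1% in adjacent cerebella and 8.18% in tumors.

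The 6 calls did not depend on a single library or on a control genotype. With each of the 9 samples left out in turn, the difference of *Fancd2* ranged from 3.57 to 3.86, that of *Fanca* from 3.26 to 3.46, that of *Fanci* from 1.82 to 1.96, that of *Fancf* from 1.44 to 1.75, that of *Fancl* from 1.31 to 1.45 and that of *Fancb* from 1.23 to 1.44, and each was called in 9 of 9 fits. Against either control genotype alone all 6 were called. With a pseudocount of 0.1 in place of 1, *Fancd2* differed by 5.15.

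Next, tumors were set against the adjacent cerebellum of the same mice. *Fanca* was the only gene of the 10 called, and it was higher in tumors, where 4.76% of the 15845 genes tested were called higher and 18% lower. The median difference was 0.84 over the 10 genes and −0.14 over all genes tested, a median that moved to 0.02 with median-of-ratios scaling and to 0.12 with quantile normalization. *Fanca* was at 9.99, 7.37 and 3.27 TPM in adjacent cerebella of GB344, GB359 and GB370, so that each tumor was above the cerebellum beside it, and it differed by 1.78 (SE 0.35, limma adjusted p = 0.00620). *Fanca* was no longer called when tumor GB344, tumor GB359, tumor GB370 or the adjacent cerebellum of GB359 was left out, with adjusted p-values of 0.0135, 0.0238, 0.0222 and 0.0182. With the mouse as a replicate block, 2 genes were called, *Fanca* and *Fancf*, and median-of-ratios scaling gave 3 and quantile normalization 6, all higher in tumors. Higher calls over all 15845 genes tested also moved with the setting, from 755 to 701 with the block. They numbered 1296 with median of ratios and 1603 with quantile normalization.

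*Fancd2* was at 6.79, 4.70 and 1.05 TPM in the adjacent cerebella, and it differed from tumors by 1.99 (SE 0.49, limma adjusted p = 0.0145). *Fanci* was at 8.24, 7.29 and 4.19 TPM, a difference of 0.999 (SE 0.25, limma adjusted p = 0.0145). *Fancf* was at 12.9, 10.9 and 5.79 TPM, a difference of 1.15 (SE 0.31, limma adjusted p = 0.0207). For these genes the adjacent cerebellum of GB370 held the lowest value of the adjacent samples. In this comparison 6 of the 10 genes had an unadjusted limma p under 0.05, a share near the 57.1% over all genes tested. *Fancl* was at 9.89, 8.52 and 8.93 TPM and passed the p threshold but not the fold minimum (0.83, SE 0.16, limma adjusted p = 0.00634). *Fancb* was at 3.56, 2.49 and 1.78 TPM, with a difference of 0.86 (SE 0.24, limma adjusted p = 0.0222).

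*Fancg* had its highest values in the adjacent cerebella, at 21.9, 20.8 and 20.9 TPM. Its tumor minus adjacent difference was −0.34 (SE 0.18, limma adjusted p = 0.152). *Fance* (25.3, 26.4 and 21.5 TPM), *Fancm* (13.4, 13.5 and 9.96 TPM) and *Fancc* (20.1, 14.9 and 8.86 TPM) overlapped with the tumors, with differences of 0.15, −0.03 and −0.31. *Fancm* turned positive with either other scaling.

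**Figure D2:**
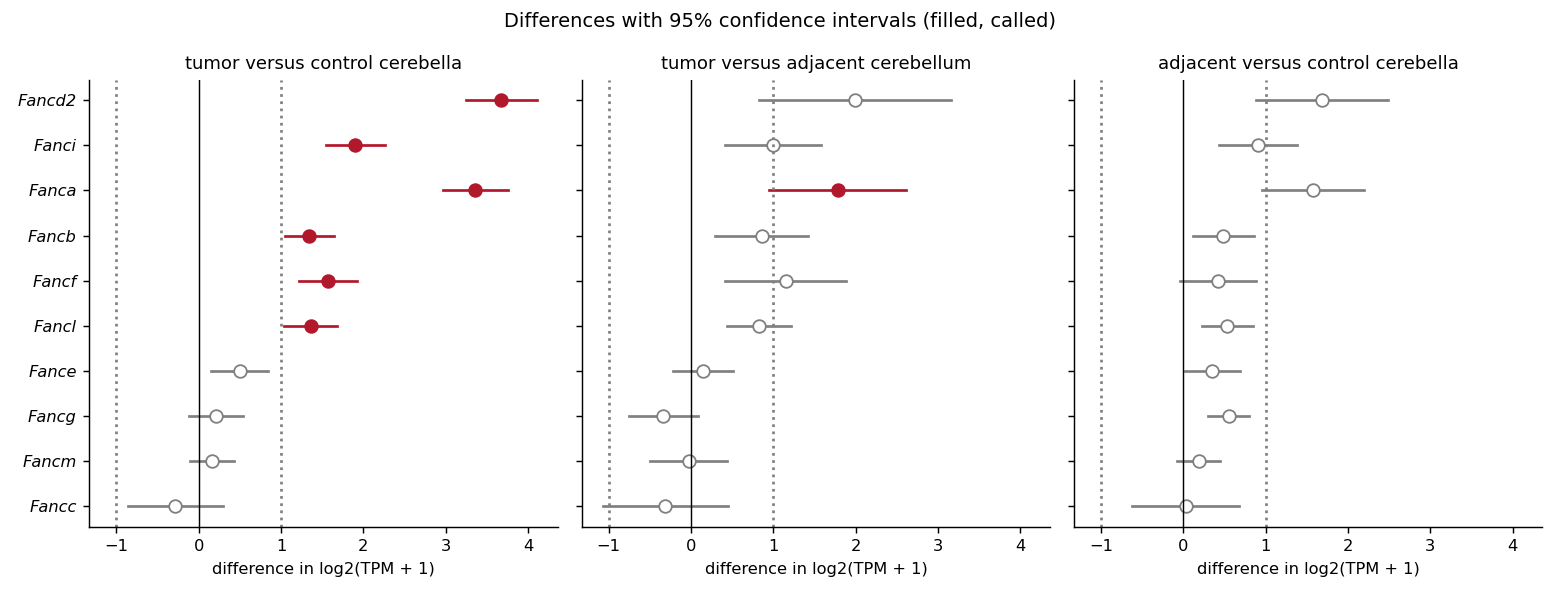
Difference in log2(TPM + 1) for each gene in the 3 comparisons that involve tumor-bearing mice, with 95% confidence intervals from limma; filled points were called, dotted lines mark the fold minimum of 1. The 6 filled points on the left are *Fancd2*, *Fanci*, *Fanca*, *Fancb*, *Fancf* and *Fancl*, *Fanca* is the only filled point in the middle, and no point on the right is filled.

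The adjacent cerebella were then set against the same 6 controls, which both comparisons with controls share. None of the 10 genes was called by limma, against 0.224% of the 16091 genes tested called higher and 0.0124% called lower, and 7 of the 10 had an unadjusted p under 0.05, as did 34.5% of all genes tested. Over the 10 genes the median difference was 0.51, and over all genes tested it was 0.07. In 5 genes every adjacent cerebellum was above every control, as it was for 11.7% of all genes tested. These were *Fancd2* (1.68, SE 0.36, limma adjusted p = 0.0199), *Fanca* (1.58, SE 0.28, limma adjusted p = 0.0132), *Fanci* (0.90, SE 0.21, limma adjusted p = 0.0257), *Fancg* (0.55, SE 0.11, limma adjusted p = 0.0182) and *Fancl* (0.53, SE 0.14, limma adjusted p = 0.0328).

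A single library weighed on this result. Without the adjacent cerebellum of GB370, 3 genes were called, *Fancd2* at 2.25 (limma adjusted p = 0.000260), *Fanca* at 1.97 (limma adjusted p = 0.000439) and *Fanci* at 1.15 (limma adjusted p = 0.00351), while the count of all genes called higher went from 36 to 564. Summed TPM of 10 proliferation genes was 689, 594 and 195 in the adjacent cerebella of GB344, GB359 and GB370, 145 to 224 in controls and 1547 to 1952 in tumors. Control GB512 held the 224 TPM. *Atoh1*, the defining transcription factor of granule cell progenitors, was at 59.4, 50.5 and 4.997 TPM in the adjacent cerebella and at 0 to 0.212 TPM in controls. The adjacent samples with more *Fancd2*, *Fanca* and *Fanci* were thus those with more progenitor and proliferation transcripts, whereas *Fancg* was as high in GB370 as in GB359. The part of these cells in the differences was not tested.

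**Figure D3:**
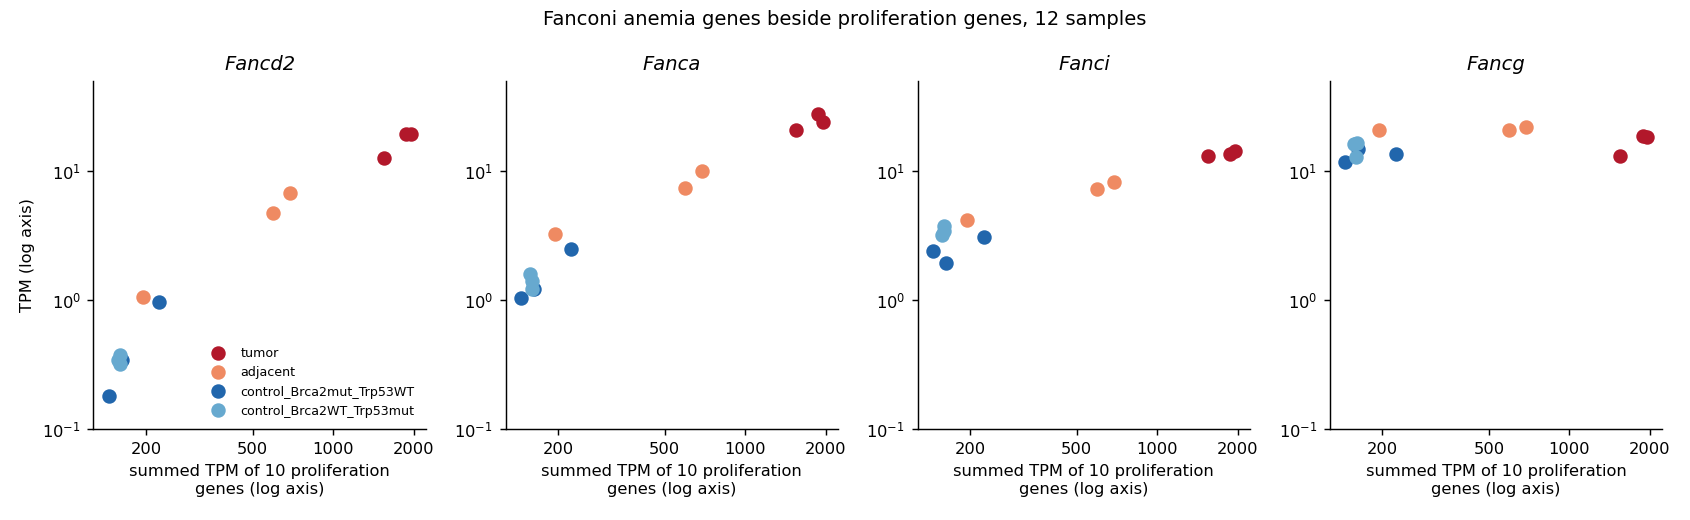
TPM of *Fancd2*, *Fanca*, *Fanci* and *Fancg* against the summed TPM of 10 proliferation genes in the 12 samples, both on log axes, colored by group. For the first 3 genes the tumors, at 1547 to 1952 TPM on the horizontal axis, are highest, and adjacent GB370 at 195 TPM lies above control GB512 at 224 TPM. For *Fancd2* these 2 samples are close, at 1.05 and 0.970 TPM. *Pcna* alone holds 103 TPM of the sum in adjacent GB370 and 112 TPM in control GB512. *Fancg* stays between 11.7 and 21.9 TPM.

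All 10 proliferation genes, replication helicase subunits and mitotic genes, were called higher in tumors than in controls, against 14.4% of all genes tested. Their median difference was 4.36. *Mki67* differed by 6.06, *Cdk1* by 5.41 and *Pcna*, the sliding clamp, by 2.52. None of the 10 was called in adjacent cerebella, where 10 of 10 had an unadjusted p under 0.05 (34.5% over all genes tested) and the median difference was 2.05. The proliferation genes differed by 2.42 to 6.06 between tumors and controls, a range that holds *Fancd2* and *Fanca* and lies above the other 8 genes of the pathway.

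Between the control genotypes, which differ in *Brca2* and in *Trp53* at once, none of the 9 genes tested was called by limma. *Fancd2* was left out because too few of these samples reached 1 TPM. Over all genes, 0.0128% of 15575 were called higher in Brca2-mut;Trp53-WT than in Brca2-WT;Trp53-mut cerebella and 0.0449% lower. Of the 9 genes, 3 had an unadjusted p under 0.05, against 20.1% of all genes tested. *Fancc* was at 7.93, 10.1 and 15.8 TPM against 17.5, 17.0 and 16.6 TPM (−0.60, SE 0.21, limma adjusted p = 0.185), *Fance* differed by −0.40 (SE 0.12, limma adjusted p = 0.143) and *Fanci* by −0.38 (SE 0.16, limma adjusted p = 0.236). In all 3, and in *Fancm* (−0.16), every Brca2-mut;Trp53-WT sample was below every Brca2-WT;Trp53-mut sample, as it was for 20.3% of all genes tested. Marker sums also differed between these groups, with choroid plexus markers lower in every Brca2-mut;Trp53-WT sample and Purkinje cell markers higher (5516 to 6816 TPM against 4023 to 4356 TPM), and their part in these differences was not tested.

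The other genes of the pathway were counted from lists that hold 8 partners of the complexes and 14 genes that act after monoubiquitination. Between tumors and controls 11 of the 22 were called higher and none lower, where 14.4% of all genes tested were called higher and 21.5% lower. Their median difference was 0.96, and 18 of the 22 had an unadjusted p under 0.05, as did 73.5% of all genes tested. Among the partners, 4 of 8 rose. *Ube2t*, the E2 enzyme that works with FANCL, was at 27.8, 29.8 and 31.0 TPM in tumors and at 3.32 to 4.93 TPM in controls, a rise of 2.72 (SE 0.13, limma adjusted p = 4.00e-08). *Usp1*, the deubiquitinase that reverses the mark, rose by 1.89 (SE 0.08, limma adjusted p = 2.72e-08), while *Wdr48*, its cofactor, differed by −0.07 (limma adjusted p = 0.524). *Cenps*, which binds FANCM with *Cenpx*, rose by 2.60, and *Faap24*, another partner of FANCM, by 1.04. *Cenpx* differed by 0.88, under the fold minimum. *Faap100* (0.19) and *Faap20* (−0.13), which bind the FANCB-FANCL module and FANCA, were not called.

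Of the genes that act after monoubiquitination, 7 of 14 rose, against 14.4% of all genes tested called higher. *Brca1* was at 18.2, 25.7 and 21.4 TPM in tumors and at 0.354 to 0.862 TPM in controls, a rise of 3.78 (SE 0.15, limma adjusted p = 1.80e-08). *Bard1*, the partner of BRCA1, rose by 2.59, *Palb2*, the link between BRCA1 and BRCA2, by 1.49, and *Brca2* by 1.36. *Mad2l2*, a subunit of polymerase zeta and of shieldin, rose by 3.47, and *Rfwd3*, a ubiquitin ligase that acts on RPA, by 1.49. None of the nuclease genes was called. *Ercc4*, which encodes the XPF nuclease, was at 9.79, 12.7 and 11.1 TPM in tumors and at 16.3 to 20.1 TPM in controls, a difference of −0.66 (SE 0.11, limma adjusted p = 0.000328) that passed the p threshold and not the fold minimum. *Fan1*, a nuclease recruited by ubiquitinated FANCD2, differed by −0.48 (limma adjusted p = 0.00611), *Slx4*, the nuclease scaffold, by 0.01 and *Ercc1*, the partner of XPF, by 0.53 (limma adjusted p = 0.000815). *Brip1* (0.26), *Xrcc2* (0.35) and *Rad51c* (0.87), a helicase gene and recombination genes, were not called.

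Against adjacent cerebellum 6 of these 22 genes were called higher in tumors (*Ube2t*, *Mad2l2*, *Cenps*, *Bard1* and *Usp1* among them) and none lower. Over all genes tested in that comparison, 4.76% were called higher and 18% lower. In adjacent cerebella against controls none of 21 tested was called by limma, where 0.224% of all genes tested were called higher. Of the 21, 8 had an unadjusted p under 0.05, a share near the 34.5% over all genes tested. With the mouse as a replicate block, the count against adjacent cerebellum was 2, where 701 of all 15845 genes tested were called higher. Without the adjacent cerebellum of GB370, 5 were called between adjacent and control cerebella, where 564 of all 16091 genes tested were called higher. Reactive aldehydes are an endogenous source of cross-links, and the enzymes that remove them moved in opposite directions. *Aldh2*, for acetaldehyde, was at 21.1, 24.1 and 28.1 TPM in tumors and at 86.2 to 98.9 TPM in controls, and it fell by 1.88 (SE 0.09, limma adjusted p = 5.73e-08). *Adh5*, for formaldehyde, was at 190, 188 and 185 TPM in tumors and at 66.9 to 89.6 TPM in controls, and it rose by 1.19 (SE 0.09, limma adjusted p = 9.07e-07). Markers of astrocytes and Bergmann glia summed to 226 to 440 TPM in tumors and to 1030 to 1293 TPM in controls. Among these markers *Gfap* overlapped, at 79.3 to 193 TPM in tumors and 117 to 181 TPM in controls. The part of these cells in the fall of *Aldh2* was not tested.

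**Figure D4:**
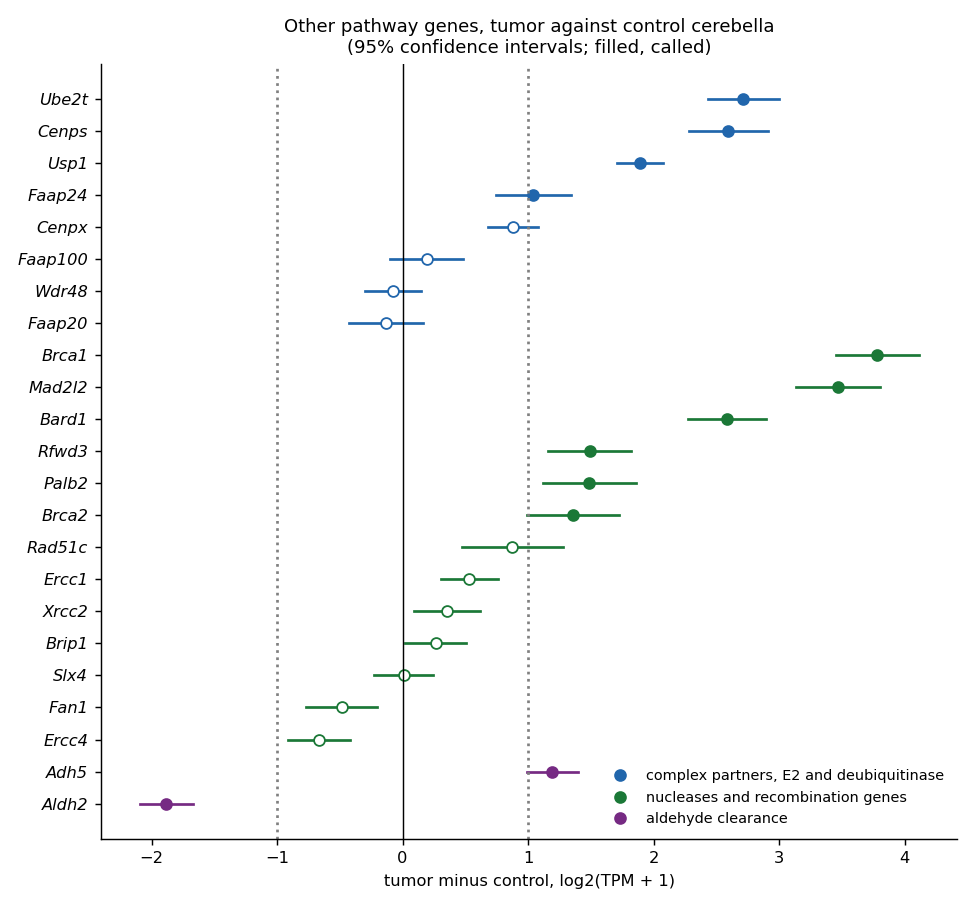
Difference between tumors and control cerebella in log2(TPM + 1) for 21 other pathway genes and 2 aldehyde-clearing enzymes, with 95% confidence intervals from limma; filled points were called and dotted lines mark the fold minimum of 1. *Brca1* at 3.78 and *Aldh2* at −1.88 are the ends of the range.

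Some genes changed by amounts close to those of the pathway genes over the 12 samples. The measure of likeness was the mean absolute difference of log2(TPM + 1) after each gene's own mean was taken out, over 16497 genes. It depends on the size of a change, so genes that move in the same direction by different amounts score as unlike. Closest to *Fancd2* were *Mms22l* (0.08), *Mcm5* (0.09) and *Igsf9* (0.11), and *Fanca* ranked 24 (0.16). Closest to *Fanca* were *Racgap1* (0.11), *Tacc3* (0.11) and *Cenpn* (0.12), and *Fancd2* ranked 14. Closest to *Fanci* were *Ick* (0.11), *Dapk1* (0.12) and *Scn3b* (0.12), and *Fancd2* ranked 6710 (0.72). *Fanci* was nearest, among the pathway genes, to *Fancf* (0.24) and *Fancb* (0.27).

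Several of these genes lie against or inside others, which bears on what their TPM holds, since no source used here says whether strand was used in the quantification. Positions are those of RefSeq on GRCm38.p6. *Fancf* (chr7:51860577-51862267) shares 15% of its exonic bases in the GENCODE annotation with *Gas2*, and *Gas2* rose by 1.65 (SE 0.12, limma adjusted p = 7.71e-07). *Fancl* (chr11:26387084-26471883) shares 13.7% with *Vrk2*, which rose by 1.39 (SE 0.19, limma adjusted p = 6.99e-05). *Fancd2* (chr6:113531640-113597020) shares 3.24% with *Fancd2os*, which rose by 2.09 (SE 0.16, limma adjusted p = 1.14e-06). These partners lie on the opposite strand, so where strand was not used some reads cannot be told apart, and the rises of *Fancf*, *Fancl* and *Fancd2* carry that uncertainty. Near *Fance* (chr17:28313530-28326574), which was not called, the ribosomal gene *Rpl10a* lies 1897 bp away and rose by 2.05.

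*Fancc* (chr13:63301334-63497292) lies 11036 bp from *Ptch1*, the receptor whose loss activates hedgehog signaling in medulloblastoma of the hedgehog type. *Ptch1* differed by 0.13 (SE 0.18, limma adjusted p = 0.527) between tumors and controls. This RNA level does not show whether the gene is intact. By whole-genome sequencing of tumors of this model, the study reports copy loss of the chromosome carrying *Ptch1* in every tumor sequenced. It also reports an inactivating mutation of the remaining allele in each. Whether the tumors used here are among them is not known. Chromosome 13 had the lowest median difference of the 20 chromosomes, −0.38 over 619 genes tested, and in the separate tumors its median was −0.47 in GB344, −0.26 in GB359 and −0.37 in GB370. In GB344 chromosome 19 was lower, at −0.65. Within 1 Mb of *Fancc*, the median over 17 genes tested was −0.36, with 1 called higher and 5 lower. *Fancc* itself differed by −0.17, −0.01 and −0.67 in those tumors. Chromosome 8, which carries *Fanca*, had a median of 0.04, and chromosome 6, which carries *Fancd2*, a median of 0.08. These values are expression only and give no copy number. The part of copy loss in the low medians of chromosome 13 and of the genes near *Fancc* was not tested.

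Promoters of 9 of the 10 genes were matched in the RefSeq table for GRCm38.p6, each with 250 bases before the start of a transcript and 50 after it. *Fancd2* had no entry there, so its promoter was not searched. That start is the outermost of the gene for *Fance*, *Fancf* and *Fancl*. It lies inside the gene's span by 26 bp for *Fanci*, 75 bp for *Fanca*, 112 bp for *Fancb*, 266 bp for *Fancg*, 1493 bp for *Fancm* and 65547 bp for *Fancc*, so for those genes a position before the start can be exonic or intronic sequence of a longer transcript. They were searched on both strands for the CCAAT box, the core word bound by NF-Y, for the E2F words TTTCGCGC, TTTGGCGC, TTTCCCGC and TTTGCCGC, and for the CHR word TTTGAA of cell cycle genes. CCAAT was found in 6 of 9 promoters, against 37.4% of all 32851 promoters. Counted per gene, with the word in any of its promoters, the share was 42.8% of tested genes and 45.4% of genes called higher in tumors. The gene shares given below for the other words were counted in the same way. Of the genes that rose, *Fanca* held it at positions −50 and −23 from the start, *Fancf* at −118, −72 and −31 and *Fancb* at −201, and it was not found in *Fanci* or *Fancl*. Of those not called, *Fancm* held it at −63, and *Fancc* and *Fance* held it in reverse at −242 and −202. An E2F word was found in 1 of 9, *Fancg* at −52, against 2.26% of all promoters, 4.46% for tested genes and 8.69% for genes called higher. The CHR word was found in 0 of 9, against 17.9%, 14.8% and 18.8%. Sites of genes that rose are shown so that the words can be seen in place. Those of *Fancf* lie in exonic sequence of the GENCODE annotation. Each is written 5′ to 3′ on the gene's strand with the word in capitals.
Fanca at −50, chr8:123318612-123318636, minus strand: atgctcctagCCAATgagcgccagc
Fanca at −23, chr8:123318585-123318609, minus strand: ctggccgcggCCAATcggaaggcag
Fancf at −72, chr7:51862325-51862349, minus strand: cggccgtcgtCCAATggcacagcac
Fancf at −31, chr7:51862284-51862308, minus strand: acgctcatgtCCAATcggctcgcgc
Fancb at −201, chrX:164980381-164980405, plus strand: tccacactgtCCAATcccatagtgt
A match of letters is a description, and nothing in these data measures binding at these sites.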

How the data were processed

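RNA was extracted from flash-frozen tissue, and poly(A) libraries were sequenced. The authors quantified transcripts with Salmon 0.8.1 (submitters' processing notes) on mm10 known genes, and the deposited table holds TPM summed per gene by the authors, with 1 column per sample and no authors' comparison columns. All 12 columns were mapped by title, and 0 were left unused. TPM is scaled to a fixed total, so depth and counting error are unknown.

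The members and lists were chosen with earlier results of these data known. The rule for named genes took all 10 members, every gene of the pathway, aldehyde and proliferation lists, the 3 genes closest to *Fancd2*, *Fanci* and *Fanca*, and genomic neighbors. A gene entered a comparison when 3 or more of its samples reached 1 TPM, and the test was limma 3.58.1 (R 4.3.3; lmFit and eBayes with trend, two-sided) on log2(TPM + 1), with Benjamini-Hochberg adjustment over all genes tested. Calls needed an adjusted p under 0.01 and a difference of at least 1. The fit was tested on simulated data. Some genes counted in the lists or lying near members are not reported here by name. Fold changes on this scale understate the change of genes near 0 TPM. Of 24091 gene IDs, 24045 matched RefSeq. Control replicates are separate mice. Tumor and adjacent samples come from the same mice by their labels, and their deviations from the group means correlated at 0.25 (GB344), 0.18 (GB359) and 0.15 (GB370) over 15845 genes; the fit with the mouse as a replicate block was an alternative. Other alternatives were the pseudocount, the filter, the scaling, the variance trend, the thresholds, a joint fit of all 4 groups, each control genotype alone and each sample left out.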

Additional observations from a re-analysis of the deposited data

Results flagged for a closer look

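In the pooled controls, a sample stood apart from the other 5 for 2 of the 10 genes, by a gap larger than Dixon's limit of 0.625 of the group's range. *Fancd2* was at 0.970 TPM in control cerebellum GB512, with a gap of 0.756 of the range, and *Fanca* was at 2.49 TPM in the same sample, with a gap of 0.627. Chance flags about 1 in 20 groups, and 10 genes were looked at. GB512 also held the most of *Mki67* (5.63 TPM against 0.180 to 0.343 TPM), *Cdk1* (2.72 TPM against 0.158 to 0.526 TPM) and *Ccnb1* (9.83 TPM against 0.410 to 0.613 TPM) among the controls. Its 4 progenitor markers summed to 34.9 TPM, inside the control range of 31.2 to 37.5 TPM. Among them *Atoh1* was at 0.0689 TPM, while *Mycn* was the highest of the controls (6.67 TPM against 3.49 to 5.41 TPM). Its 4 microglia and macrophage markers summed to 130 TPM, against 65.8 to 92.1 TPM in the other controls. The part of any cell type was not tested. Leaving GB512 out kept the 6 genes called between tumors and controls.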

How the results depend on the processing

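Between tumors and controls, 6 members were called higher with every sample left out in turn and 10 or 11 of the other 22 pathway genes, and all-gene counts ranged from 2243 to 2352 higher and 3331 to 3630 lower. At an adjusted p under 0.05 with no fold minimum, the all-gene counts were 5165 higher and 6408 lower, with 2 other pathway genes lower. *Fancc* changed sign against the Brca2-mut;Trp53-WT controls alone (0.016).

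Between tumor and adjacent cerebellum, members called higher numbered 0 with no filter, 3 with median-of-ratios scaling, 6 with quantile normalization, 3 with all 4 groups in 1 fit, 6 at an adjusted p under 0.05 with no fold minimum, 2 with the mouse as a replicate block and 0 to 1 with a sample left out. Other pathway genes called higher numbered 1 with a pseudocount of 0.1, 1 with no filter, 11 with quantile normalization, 13 at an adjusted p under 0.05 (2 lower), 2 with the replicate block and 0 to 7 with a sample left out. All genes called higher numbered 465 with no filter, 1296 with median of ratios, 1603 with quantile normalization, 1278 in the joint fit, 2870 at an adjusted p under 0.05 (5110 lower) and 189 to 913 with a sample left out. With the replicate block they numbered 701. The share of higher calls was 20.9%, against 34.4% with median of ratios and 42.2% with quantile normalization. The replicate block ended no call of a member and added *Fancf*. *Fancm* changed sign with median of ratios (0.14), quantile normalization (0.28) and a sample left out (−0.160 to 0.0886), and *Fancc* with quantile normalization (0.0022).

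Between adjacent and control cerebella, 5 members and 5 other pathway genes were called higher at an adjusted p under 0.05, and 0 to 3 members and 0 to 5 others with a sample left out. All genes called higher numbered 4 with no filter, 10 without the trend, 22 in the joint fit, 1627 at an adjusted p under 0.05 and 0 to 564 with a sample left out, and genes called lower numbered 0, 0, 9, 897 and 0 to 29, with 7 under median of ratios and 18 under quantile normalization. *Fancc* changed sign with median of ratios (−0.041), quantile normalization (−0.12) and a sample left out (−0.22 to 0.32).

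Between control genotypes no member was called in any setting. All genes called lower numbered 1 with no filter, 1 with at least 5 TPM, 2 with median of ratios, 1 with quantile normalization, 1 without the trend, 19 in the joint fit, 65 at an adjusted p under 0.05 (6 higher) and 2 to 27 with a sample left out (2 to 5 higher). *Fancl* changed sign with median of ratios (0.00699), quantile normalization (0.046) and a sample left out (−0.173 to 0.0775), and *Fanca* with a sample left out (−0.167, without GB512, to 0.216). The cause of these changes was not tested. Without read counts, the depth that limits low values such as *Fancd2* in controls is unknown.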
